A study of Mus musculus with 4 samples.

Results

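Gm42418 and Gm26917 are noncoding mouse RNAs whose loci are known to carry ribosomal RNA-like sequence. Every listed pair with either name on either side was taken from the table of contacts, which gave 2 RNAs of the 13318 in the table and 16006 pairs of 56636, or 28.3% of all pairs. Both RNAs were chosen by their measured counts and numbers of partners, so their own levels are given below as a description. The contacts were measured by RIC-seq, in which formaldehyde holds RNAs in place, neighbouring RNA ends are ligated inside the cell, and reads that join pieces of different RNAs (chimeric reads) are counted per pair. The cells were mouse spermatogonial stem cells, the germ line cells that sustain sperm production, in 2 libraries titled treat whose genotype is given as Differentiation and 2 libraries titled ctrl whose genotype is WT. The inducer, the duration, the strain and the age are not given in the sources used here, nor whether a library had a culture or animal of its own. The p-values therefore set the group differences against the variation between these libraries, and that variation may be technical.

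Ribosomal RNA is made in the nucleolus as a long precursor that carries 18S, 5.8S and 28S RNA. Small nucleolar RNAs (snoRNAs) base-pair with that precursor: U3 is needed for the cleavages that free 18S RNA, and most others guide methylation or pseudouridylation of single bases. Mature ribosomes then meet messenger RNAs in the cytoplasm. The RefSeq annotation of GRCm38.p6 gives Gm42418 as a synonym of Rn18s-rs5, a pseudogene related to 18S ribosomal RNA at chr17:39846354-39848202. Its neighbour on that chromosome is the noncoding RNA AY036118 at chr17:39848112-39898385. The contact table also lists the name Rn18s-rs5 by itself, with 4 pairs and 38 counts, none of them with a hub. Gm26917 has no match in that annotation, and its position is not used here.

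Total counts were 793129 and 1155923 in the differentiation libraries, against 1209031 and 1400011 in the controls. Of 11 stem cell markers, 8 had listed contacts, and Lhx1, Id4 and Eomes had none. The summed contacts of the 8 were 398 and 376 CPM (counts scaled to a common library total) in differentiation libraries and 1083 and 1252 in controls. Those of 7 differentiating germ cell markers were 780 and 972 CPM in differentiation libraries and 211 and 200 CPM in controls, so the groups did not overlap for either list. Sertoli cell markers (6 of 8 listed, Amh and Rhox5 absent) summed to 941 and 906 CPM in differentiation libraries and 1404 and 1584 in controls. Fibroblast markers (7 of 10 listed, Postn, Dcn and Lum absent) summed to 1319 and 1569 in differentiation libraries and 2012 and 1868 in controls. Fewer cells of a type and less RNA per cell cannot be told apart in these bulk libraries.

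Gm42418 had more partners than any other RNA in the table. It was paired with 8422 RNAs, Gm26917 with 7584, and the median RNA with 3. Slc9a9, which encodes a sodium-proton exchanger, lay between the hubs with 7833 partners, and Malat1, an abundant nuclear noncoding RNA, had 2181. No listed pair joined Gm42418 with Gm26917, and none joined either hub with itself, although 4836 of the listed pairs join an RNA with itself. Pairs are listed with at least 1 count in all 4 libraries, so a pair seen in fewer libraries is not analysed here.

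Pairs of Gm42418 held 83702 and 115520 counts in the differentiation libraries, against 123346 and 168180 in the controls. These were 10.6% and 9.99% of all counts in differentiation, against 10.2% and 12% in controls, so the groups overlapped. Pairs of Gm26917 held 70240 and 110903 counts in differentiation, against 133098 and 175305 in controls. Their shares were 8.86% and 9.59% in differentiation and 11% and 12.5% in controls, without overlap. The ratio of Gm42418 to Gm26917 counts was 1.19 and 1.04 in differentiation and 0.927 and 0.959 in controls. On contact totals scaled by TMM, Gm26917 had a log2 change of -0.50 (SE 0.13, adjusted p = 0.0296 with edgeR's quasi-likelihood test), beside 12.2% of all 10993 RNAs called, 5.44% higher and 6.75% lower. That call was lost when the scaling used hub-free pairs (log2 change -0.32, adjusted p = 0.276) or hub pairs alone (-0.083, adjusted p = 0.683), and without control 1 (0.183) or control 2 (0.491). Gm42418 had a log2 change of -0.26 (SE 0.14, adjusted p = 0.255), and 0.16 when the scaling used hub pairs alone.

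The partner sets overlapped widely. Both hubs shared 6481 partners, which is 77.0% of the partners of Gm42418 and 85.5% of those of Gm26917. A further 1941 RNAs were paired with Gm42418 and 1103 with Gm26917 alone. Together the 9525 partners were 77.4% of the RNAs with any between-RNA pair other than the hubs. Among partners with a summed count of at least 20, the shared part was 80.1% for Gm42418 and 89.8% for Gm26917. Other RNAs with many contacts drew on the same pool: 97.6% of the partners of Malat1 were also paired with a hub, as were 88.6% of those of Slc9a9.

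How many counts a partner gave one hub tracked how many it gave the other. Across the 6481 shared partners the log2 counts had a Pearson correlation of 0.893 and a Spearman correlation of 0.882, a description of points that share libraries, depth and the level of the partner. Against a partner's counts with all other RNAs, the Pearson correlation was 0.713 for Gm42418 over 7188 partners and 0.732 for Gm26917 over 6583. The median partner had 31 counts with Gm42418 and 30 with Gm26917, so most single pairs rest on few reads. For 1733 RNAs, 18.2% of the partners, hub pairs were the sole listed contacts with other RNAs. Among 4306 partners with at least 100 between-RNA counts, the hubs held a median of 50% of them, with quartiles of 36.4% and 60.4%. The median was 51.4% for protein-coding partners, 46.1% for snoRNAs and 6.74% for pseudogenes.

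**Figure D1:**
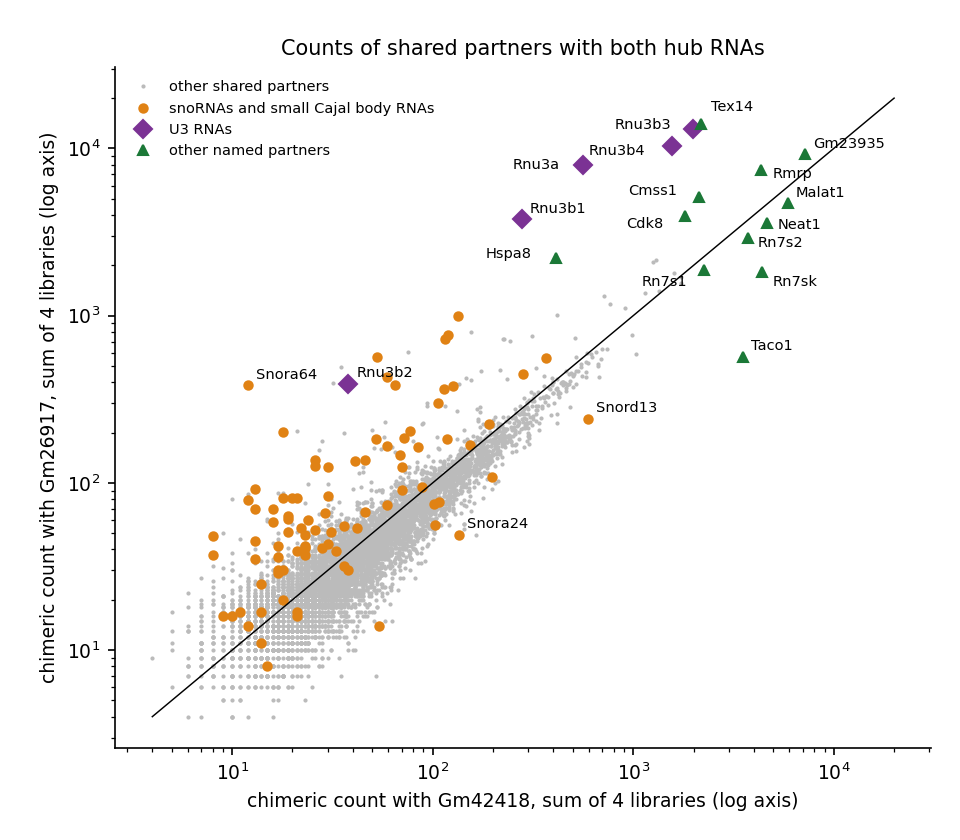
Each point is 1 of 6481 RNAs paired with both hubs, with its chimeric count summed over 4 libraries with Gm42418 (horizontal) and Gm26917 (vertical), both on log axes, and the line marks equal counts. U3 RNAs (diamonds), Tex14 and most snoRNAs lie above the line, while Taco1, Snord13 and Snora24 lie below it.

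Messenger RNAs made up most of the partners of both hubs. Protein-coding genes were 91.5% of the partners of Gm42418 and 90.8% of those of Gm26917. They held 82.3 ± 0.322% of Gm42418 counts in differentiation and 84.9 ± 0.384% in controls (SD, n = 2 each). For Gm26917 the shares were 73.3 ± 0.916% in differentiation and 76.5 ± 0.297% in controls. U3 carried more of Gm26917, as did snoRNAs and the RNase P and MRP RNAs. A list of spliceosomal and other abundant small RNAs summed to more of Gm42418. RNase P and MRP RNAs held 2.09% of Gm26917 counts in differentiation and 1.61% in controls (means), against 1.24% and 0.923% of Gm42418 counts. For snoRNAs these means were 2.45% and 2.69% of Gm26917 counts, against 1.02% and 1.05% of Gm42418 counts. The class that RefSeq calls snRNA, which includes U3, held 9.40 ± 1.04% of Gm26917 counts in differentiation and 8.07 ± 0.0477% in controls. The same class held 2.74 ± 0.0424% of Gm42418 counts in differentiation and 2.05 ± 0.118% in controls. Spliceosomal and other abundant small RNAs without U3 held 2.66% and 2.74% of Gm42418 counts in differentiation and 1.90% and 1.76% in controls. Of Gm26917 counts they held 1.61% and 1.89% in differentiation and 1.35% and 1.36% in controls. Long noncoding RNAs held a lower share in differentiation for both hubs, with 2.52 ± 0.0940% against 4.00 ± 0.0509% for Gm42418 and 2.24 ± 0.0289% against 3.49 ± 0.0521% for Gm26917. The shift of long noncoding RNAs was also seen outside the hubs. At the ends of between-RNA pairs without either hub, long noncoding RNAs held 5.54 ± 0.424% in differentiation and 11.3 ± 1.84% in controls. Protein-coding genes held 56.6 ± 8.12% there in differentiation and 63.3 ± 2.54% in controls. Their single libraries had 50.8% and 62.3% in differentiation and 61.5% and 65.1% in controls, so the groups overlapped. The smallest p that exact permutation allows with 2 libraries a group is 0.333 (two-sided), so these shares carry no call.

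**Figure D2:**
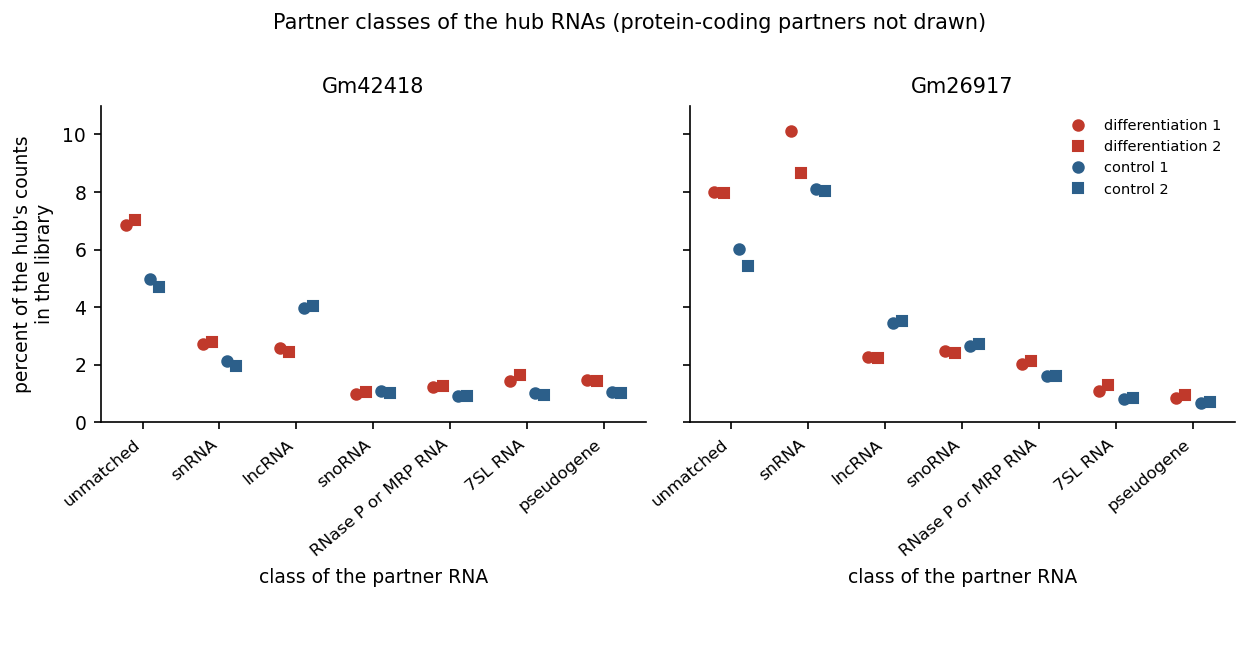
Percent of each hub's counts held by partner classes other than protein-coding genes, with 1 point per library, differentiation left of control within each class. Long noncoding RNAs lie lower in both differentiation libraries for both hubs, and the snRNA class stands higher for Gm26917 than for Gm42418.

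Most of the largest single partners were abundant noncoding RNAs. For Gm42418 they were Gm23935 (7185 counts, no match in the gene table), Malat1 (5885), Neat1 (4663), Rn7sk (4396), Rmrp (4316) and Rn7s2 (3719). Neat1 is the scaffold of paraspeckles, Rn7sk holds the elongation factor P-TEFb inactive, Rmrp is the RNA of RNase MRP, which cuts pre-ribosomal RNA, and Rn7s2 is a 7SL RNA of the signal recognition particle. For Gm26917 the largest were Tex14 (14007), Rnu3b3 (13144), Rnu3b4 (10294), Gm23935 (9234), Rnu3a (8018) and Rmrp (7451). Tex14 contains the Rnu3b genes, so its count may hold U3 reads, as described below. The 10 largest partners held 16.3% of Gm26917 counts and 8.20% of Gm42418 counts.

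U3 was paired far more often with Gm26917 than with Gm42418. The 5 U3 genes in the table (Rnu3a on chromosome 10 and Rnu3b1 to Rnu3b4 on chromosome 11) held 9% and 7.36% of Gm26917 counts in the differentiation libraries and 6.86% in each control. Their share of Gm42418 counts was 1.10% and 1.19% in differentiation, against 0.778% and 0.704% in controls. Over all libraries, 35638 U3 counts were with Gm26917 and 4438 with Gm42418, so 11.1% were with Gm42418. Every library count of the 5 U3 genes with either hub was an even number. Reads may have been entered more than once, which was not tested. The U3 counts, shares and ranks would then be too high. Tex14 encodes a protein of the intercellular bridges between germ cells. Its locus (chr11:87405013-87555823) contains the 4 Rnu3b genes and the U1 gene Rnu1a1, and 13.4% of its hub counts were with Gm42418, close to the 13.2% of Rnu3b3 and of Rnu3b4. Reads over such nested genes cannot be assigned from this table, so the counts of Tex14 and of the Rnu3b genes may hold the same reads. The same holds for Hspa8, a heat shock chaperone gene that contains Snord14c, Snord14d and Snord14e, and for Rps2, which contains Snora64. With Gm26917, Hspa8 had 2201 counts, and Snord14c, Snord14d and Snord14e had 726, 989 and 429. Rps2 had 394 and Snora64 had 384. Most counts of these host genes may thus be those of the small RNAs, which was not tested. The 67 protein-coding partners of Gm26917 that overlap a snoRNA or snRNA gene held 7.41% of its protein-coding counts. For Gm42418 the corresponding 67 held 2.18%.

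The split of a partner is the percent of its hub counts that were with Gm42418. Over 2358 shared partners with at least 100 hub counts it had a median of 53.4%, and the range from the 5% to the 95% quantile was 39.1% to 64.0%. The partners leaning most to Gm26917 were Snora64 (3.03%), Rnu3a (6.57%), Mir5099 (6.65%), Rnu3b1 (6.83%) and Rps2 (7.51%). Those leaning most to Gm42418 were Taco1 (86.1%, a gene needed to translate a mitochondrial cytochrome oxidase subunit), Gm27694 (77.0%), Hist1h2bj (75.2%), Snora24 (73.4%) and Rab7 (73.0%). Among 39 snoRNAs the median was 26.1%, among 8 mitochondrially encoded RNAs 62.6%, and among 9 small and 17 large ribosomal protein genes 31.3% and 32.9%. Among 8 listed spliceosomal and other abundant small RNAs it was 44.3%, with a range of 26.6% to 70.6%.

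Most guide snoRNAs leaned to Gm26917, those of 18S RNA and those of 28S RNA alike. A list of 34 snoRNAs known, mainly in human cells, to act on 18S RNA had 11 members with at least 100 hub counts and pairs with both hubs. Their median split was 17.0%, from 8.18% for Snord14a to 73.4% for Snora24. Of 44 snoRNAs that act on 28S RNA, 11 qualified, with a median of 28.8% and a range of 3.03% to 47.7%. The 18S guides Snord13 (71.1%) and Snora24 were the 2 of these 22 snoRNAs above 50%. This list was drawn up after some of the splits were known, and no test was made on it.

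A few annotated microRNA genes were partners too, and their sequences are shown because several lie inside snoRNA or nucleolar genes, so a read over them need not come from a microRNA. Mir3535 and Gm24148 name the same locus inside Ncl, the gene of the nucleolar protein nucleolin, and had the same counts. Mir5121 overlaps Snord33 in the ribosomal protein gene Rpl13a, and Mir1291 overlaps Snora34. The mature sequences from RefSeq (GRCm38.p6) are given 5′ to 3′, with the seed (bases 2 to 8) in capitals.
miR-3535 (chr1:86352062-86352087, minus strand): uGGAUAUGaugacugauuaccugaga
miR-5121 (chr7:45126925-45126945, minus strand): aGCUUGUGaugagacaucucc
miR-1291 (chr15:98519828-98519853, minus strand): aUGGCUCUuacugaagacuagcaguu
miR-6236 (chr9:110281353-110281371, plus strand): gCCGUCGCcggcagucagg
The 4 seeds differ from each other. The Mir3535 locus had 143 counts with Gm42418 and 57 with Gm26917. Mir6236 leaned the other way, with 27 counts with Gm42418 and 158 with Gm26917, as did Mir5121 with 55 and 159. Mir1291 was listed with Gm26917 alone, at 26 counts. None of the 5 and 7 microRNA pairs tested with Gm42418 and Gm26917 passed the threshold for a change with edgeR, and 1 of each had an unadjusted p under 0.05.

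**Figure D3:**
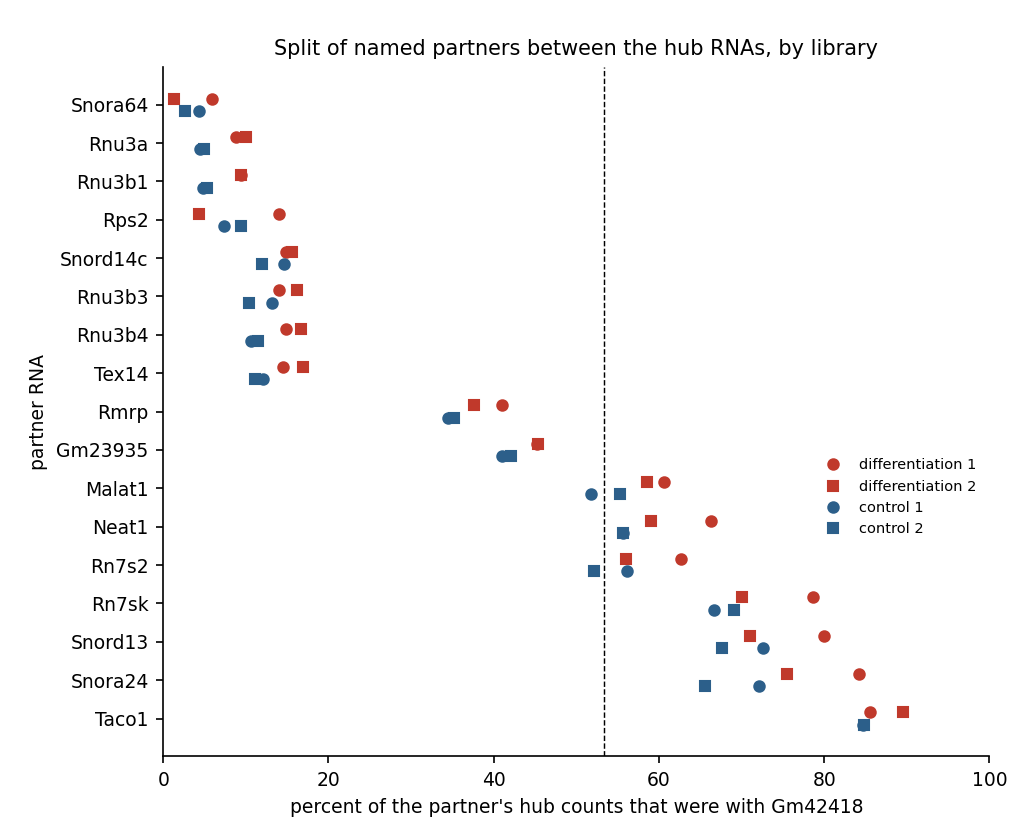
Percent of the hub counts of 17 named partners that were with Gm42418 in each library, with differentiation libraries drawn above controls in each row and the median over 2358 partners (53.4%) as a dashed line. U3 RNAs, Tex14 and Snord14c stay under 20% in every library, and Taco1 above 80%.

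Rnu3a was the RNA whose split was called as changed. It gave Gm42418 8.87% and 9.97% of its hub counts in differentiation, against 4.48% and 4.91% in controls. The test of the hub-by-differentiation term gave a log2 change of 0.84 (SE 0.15, adjusted p = 2.19e-04), the 1 call among 5918 partners, or 0.0169%. With an unadjusted p under 0.05 there were 265. Neither leaving out control 1 or control 2 nor DESeq2 left any call, and leaving out differentiation 1 gave 3. Rnu3b1 had splits of 9.47% and 9.45% in differentiation, against 4.77% and 5.35% in controls, with a log2 change of 0.73 (adjusted p = 0.404). Rnu3b3 had 14.0% and 16.2% in differentiation, against 13.1% and 10.4% in controls (log2 change 0.19, adjusted p = 0.996), and Rnu3b4 had 14.8% and 16.7% in differentiation, against 10.6% and 11.5% in controls (0.35, adjusted p = 0.996). Rnu3b2, with few counts, went the other way, at 2.27% and 11.9% in differentiation, against 17.0% and 5.26% in controls (-0.84, adjusted p = 0.996). Counts of Rnu3a with Gm42418 were 124 and 192 in differentiation libraries and 104 and 144 in controls, and those with Gm26917 were 1274 and 1734 in differentiation libraries and 2220 and 2790 in controls. All of these counts are even, and reads entered more than once would make the p of the split test too small. Whether they were was not tested.

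Contacts of Gm42418 were called as changed with few partners. In simulated data the fit called 10 of 100 pairs with a log2 change of 1 and 64 of 100 with a change of 2. These rates need not hold for pairs with few counts, where they may be lower. The median pair of Gm42418 had 31 counts and that of Gm26917 had 30. Pairs without a call may thus have changed. Of 6261 pairs tested, 61 were higher and 65 lower in differentiation, together 2.01%, beside 5.24% of all 31688 pairs (2.85% higher and 2.4% lower). Among between-RNA pairs without either hub, 4.64% were called, 1.78% higher and 2.86% lower. The median log2 change of its pairs was 0.05, and 834 pairs had an unadjusted p under 0.05. Dnah8, Spp1 and 6 histone genes were among the rises, and Neat1, Rnf213, Map3k1 and Sobp among the falls. Without control 2 the counts were 22 higher and 20 lower, without control 1 28 higher, and without differentiation 1 120 lower. The balance differed with the scaling: with column totals 44 were higher and 103 lower, with factors from hub-free pairs 44 and 89, and with factors from hub pairs 98 and 53. A scaling with hub pairs moved the median over all pairs to 0.14, and column totals moved it to -0.12, from 0.02.

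Contacts of Gm26917 fell more often than they rose. Of 5587 pairs tested, 19 were higher and 106 lower, together 2.24%. Over all 31688 pairs 5.24% were called, 2.85% higher and 2.4% lower, so these calls were not more frequent than in the whole table. The median log2 change of the Gm26917 pairs was -0.23. An unadjusted p under 0.05 was found for 794. Without control 2 the counts were 6 higher and 31 lower, without control 1 8 higher, and without differentiation 1 36 higher. More pairs were lower than higher under all 4 other scalings, with 12 and 167 under column totals and 31 and 89 under factors from hub pairs as the extremes of balance. By class, 53 of the 61 rises and 63 of the 65 falls of Gm42418 were with protein-coding genes, and for Gm26917 18 of 19 and 100 of 106. Protein-coding genes were also 5827 of the 6261 pairs tested with Gm42418 and 5126 of the 5587 with Gm26917. These numbers are thus no result about the class.

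**Figure D4:**
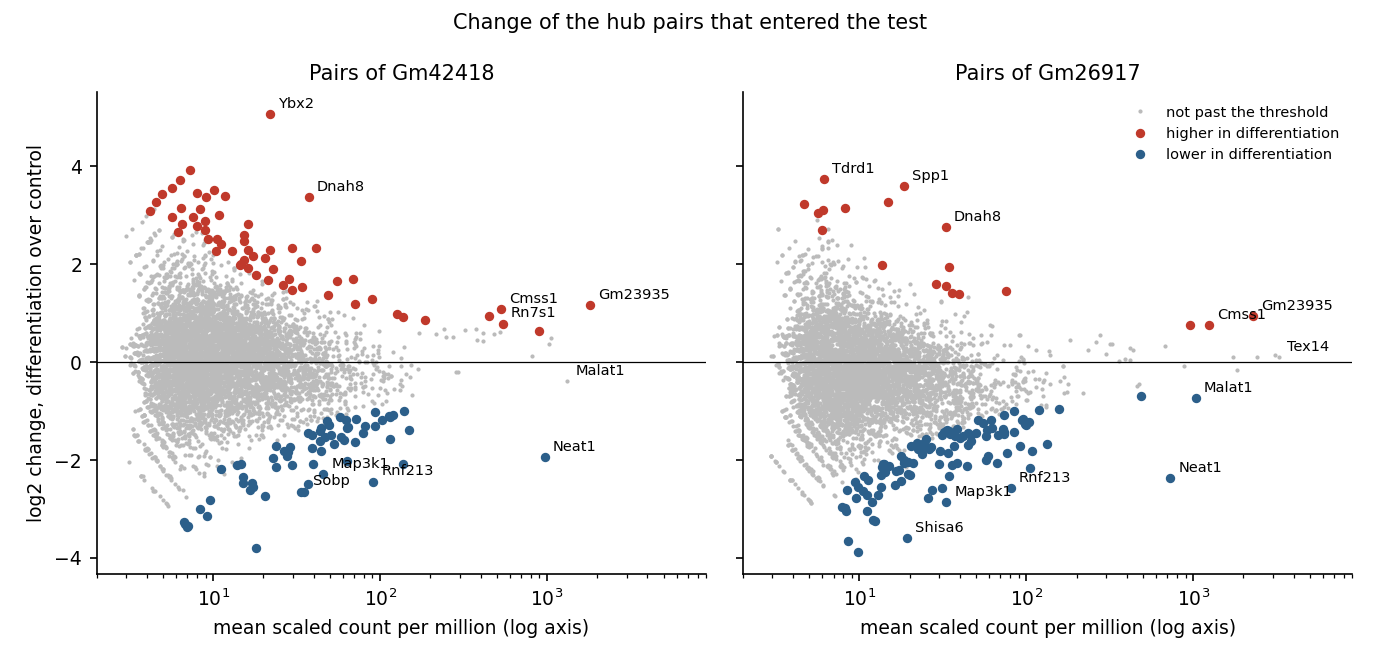
Log2 change of each tested pair (differentiation over control) against its mean scaled CPM on a log axis, for Gm42418 (left, 6261 pairs) and Gm26917 (right, 5587 pairs), with pairs past an adjusted p of 0.05 in colour. The cloud of Gm26917 lies lower, and Neat1 and Gm23935 are the abundant partners farthest from 0.

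Neat1 fell with both hubs. With Gm42418 it had 442 and 355 scaled CPM in differentiation and 1430 and 1638 in controls (log2 change -1.95, SE 0.19, adjusted p = 1.63e-05). With Gm26917 it had 225 and 247 CPM in differentiation and 1137 and 1307 in controls (log2 change -2.37, SE 0.20, adjusted p = 2.50e-06). The groups lay far apart, and both calls were kept without each library in turn. Neat1's other contacts, those without either hub and including any pair of Neat1 with itself, were lower too. They held 12105 and 12798 counts in differentiation and 68183 and 90052 in controls. Of the Gm42418 pair and these other contacts together, the pair held 2.50% and 2.82% in differentiation and 2.43% and 2.47% in controls. The test of the Gm42418 pair against those other contacts gave a log2 difference of 0.12 (adjusted p = 0.919). Malat1 fell with Gm26917, at 773 and 779 CPM in differentiation and 1215 and 1369 in controls (log2 change -0.74, SE 0.18, adjusted p = 0.0199). That call was lost without control 1 (adjusted p = 0.124) or control 2 (0.337). With Gm42418 Malat1 had a log2 change of -0.39 (adjusted p = 0.23).

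Rnf213, Map3k1 and Sobp fell with both hubs. Rnf213, a large ubiquitin ligase, had 24.2 and 31.6 CPM with Gm42418 in differentiation and 146 and 161 in controls (log2 change -2.44, SE 0.30, adjusted p = 1.30e-04). With Gm26917 it had 18.5 and 26.8 in differentiation and 122 and 155 in controls (log2 change -2.58, SE 0.32, adjusted p = 1.56e-04). Map3k1, a kinase upstream of JNK, had 22.7 and 9.58 CPM with Gm42418 in differentiation and 61.5 and 89.0 in controls, and 7.11 and 8.62 with Gm26917 in differentiation and 48.9 and 68.1 in controls. It fell by 2.28 on the log2 scale with Gm42418 (SE 0.42, adjusted p = 0.00369) and by 2.86 with Gm26917 (SE 0.44, adjusted p = 9.60e-04). Sobp had 8.53 and 10.5 CPM with Gm42418 in differentiation and 47.2 and 74.6 in controls, which is a fall (log2 change -2.65, SE 0.44, adjusted p = 0.00160). With Gm26917 it fell by 2.56 (SE 0.49, adjusted p = 0.00508). These calls were kept without each library in turn.

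Shisa6, which marks a subset of undifferentiated spermatogonia, had 2.84 and 2.87 CPM with Gm26917 in differentiation and 30.3 and 40.9 in controls (log2 change -3.59, SE 0.58, adjusted p = 0.00135). With Gm42418 it had 15.6 and 7.66 in differentiation and 41.3 and 54.5 in controls (log2 change -2.09, SE 0.45, adjusted p = 0.0113). The Gm42418 call was lost without control 2 (adjusted p = 0.0861) or differentiation 2 (0.0502). Gfra1, the receptor for GDNF, had 2.84 and 2.87 CPM with Gm26917 in differentiation and 13.5 and 18.7 in controls (log2 change -2.45, adjusted p = 0.0428). This call was lost without differentiation 1 (adjusted p = 0.0511), differentiation 2 (0.122), control 1 (0.0562) or control 2 (0.198). Of 7 tested self-renewal genes with each hub, 3 were lower with Gm26917 (Shisa6, Gfra1 and Zbtb38) and 1 with Gm42418 (Shisa6). Over all 31688 pairs 2.4% were lower. DESeq2 called 1 self-renewal gene with each hub. Zbtb38, a zinc finger gene, had 15.6 and 8.62 CPM with Gm26917 in differentiation and 36.2 and 37.3 in controls (log2 change -1.64, adjusted p = 0.0441). Its call was lost with DESeq2 (0.0803), scaling from hub pairs (0.0559) and between-RNA pairs (0.0557), and without differentiation 2 (0.232), control 1 (0.117) or control 2 (0.181). The median log2 change of the self-renewal genes was -1.47 with Gm26917 and -0.39 with Gm42418, beside -0.23 and 0.05 over all pairs of each hub. With Gm26917 the count was 1 without differentiation 2, without control 1 and without control 2. With Gm42418 it was 0 without differentiation 2 or control 2, and 2 without control 1.

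Other falls kept their call without each library, unless a value without 1 is given. Trim2, a ubiquitin ligase, had a log2 change of -2.65 with Gm42418 (SE 0.44, adjusted p = 0.00157), and Vegfa, a growth factor of blood vessels, -2.48 (SE 0.44, adjusted p = 0.00269). Trerf1, a transcriptional regulator, had -2.77 with Gm26917 (SE 0.50, adjusted p = 0.00346), and Prss35 -2.61 (SE 0.47, adjusted p = 0.00333). Lsr, a lipoprotein receptor of tricellular junctions, had -2.74 with Gm42418 (adjusted p = 0.00514) and 9430076C15Rik -2.14 (adjusted p = 0.0110, and 0.0622 without control 2). Of 8 Sertoli marker pairs tested with Gm42418, beside 2.4% lower over all 31688 pairs, Clu (log2 change -1.34, adjusted p = 0.0170) and Cldn11 (-1.61, adjusted p = 0.0132) were lower. Neither passed without control 2, at 0.180 and 0.118. With Gm26917 0 of 8 passed with edgeR or DESeq2, 2 had an unadjusted p under 0.05, and the summed Sertoli markers given above were lower in differentiation as a whole. The part of Sertoli cells in these falls was not tested.

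Dnah8 rose with both hubs and kept both calls without each library. This axonemal dynein gene of sperm tails had 54.0 and 82.4 CPM with Gm42418 in differentiation and 4.21 and 8.61 in controls (log2 change 3.38, SE 0.45, adjusted p = 3.05e-04). With Gm26917 it had 52.6 and 62.3 in differentiation and 4.21 and 12.2 in controls (log2 change 2.76, SE 0.46, adjusted p = 0.00186). Its other contacts were higher as well, at 1144 and 1776 counts in differentiation, against 204 and 213 in controls, and the Gm42418 pair against them had a log2 difference with an adjusted p of 0.997.

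A few germ cell and meiotic genes rose, on few reads. Sycp1, a component of the synaptonemal complex, had 28.4 and 23.9 CPM with Gm42418 in differentiation and 2.53 and 6.46 in controls (log2 change 2.47, SE 0.57, adjusted p = 0.0159). That call was lost without control 1 (adjusted p = 0.115), as was the one with Gm26917 (0.109). Ybx2, an RNA-binding protein of germ cells, had 28 and 47 counts with Gm42418 in differentiation, against 1 and 2 in controls. The scaled ratio was 36.9, with an exact 95% interval of 12.2 to 183 that covers counting error alone, and the call (adjusted p = 1.22e-04) was kept without each library. Tdrd1, a piRNA pathway gene, had 6 and 15 counts with Gm26917 in differentiation and 1 in each control, a ratio of 15.5 (exact 95% interval 3.79 to 136). Its call (adjusted p = 0.0129) was lost without differentiation 2 (adjusted p = 0.201) or control 2 (0.0869). Over all 31688 pairs 2.85% were higher, and 1 call in lists this short is no result about a list. Of 12 tested meiotic prophase genes 1 was higher with Gm42418, and of 8 with Gm26917 also 1, with median log2 changes of 0.50 and 0.48. Among 9 germ cell identity genes tested with Gm42418 and 7 with Gm26917, 1 was higher with each, and the medians were 1.32 and 0.77.

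The histone genes of the large clusters, which make most of the histones of dividing cells, were among the rises. Of 43 tested with Gm42418, beside 2.85% higher and 2.4% lower over all pairs, 6 were higher and 0 lower, with a median log2 change of 1.81. With Gm26917, 2 of 35 were higher and 0 lower, with a median of 1.20. Hist1h2bj had 38.4 and 34.5 CPM with Gm42418 in differentiation and 6.74 and 7.89 in controls (log2 change 2.29, SE 0.47, adjusted p = 0.00787). Hist1h2ba, the testis-specific H2B gene, had 28.4 and 25.9 with Gm26917 in differentiation and 0.843 and 4.30 in controls (log2 change 3.28, SE 0.63, adjusted p = 0.00547). With Gm42418 it had a log2 change of 2.59 (adjusted p = 0.0117, and 0.123 without control 2). Without control 2, 2 histone genes passed with Gm42418 and 1 with Gm26917, and with Gm26917 1 also passed without control 1. Without differentiation 1 there were 12 and 5, and without differentiation 2 there were 11 and 4. Near-identical histone genes can share reads, so single members are uncertain. Over their contacts with all RNAs, 29 of 54 histone genes were higher and 0 lower, beside 5.44% higher and 6.75% lower over all 10993 RNAs.

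Spp1 rose with both hubs, and Lars2, Ctgf and Tnc with Gm26917. Spp1, the secreted protein osteopontin, rose by 2.82 with Gm42418 (SE 0.56, adjusted p = 0.00636) and by 3.60 with Gm26917 (SE 0.56, adjusted p = 9.41e-04). Lars2, the mitochondrial leucine tRNA ligase gene, had 99.5 and 122 CPM with Gm26917 in differentiation and 33.7 and 46.6 in controls (log2 change 1.46, adjusted p = 0.00844, and 0.0874 without control 1). Ctgf, a matrix-associated growth factor, and Tnc, the matrix protein tenascin C, also rose with Gm26917, by 1.38 (adjusted p = 0.0313) and 1.40 (0.0369). Ctgf was lost without differentiation 2 (adjusted p = 0.0644), control 1 (0.101) or control 2 (0.242), and Tnc without differentiation 1 (0.0677), control 1 (0.111) or control 2 (0.256). Tnc was the 1 call among 13 tested fibroblast and feeder genes with Gm26917, beside 2.85% higher over all 31688 pairs. The median log2 change of the 13 was -0.72. With Gm42418, 0 of 14 passed by edgeR or DESeq2, and 1 had an unadjusted p under 0.05. The summed fibroblast markers given above were lower in differentiation, and their part in these changes was not tested.

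**Figure D5:**
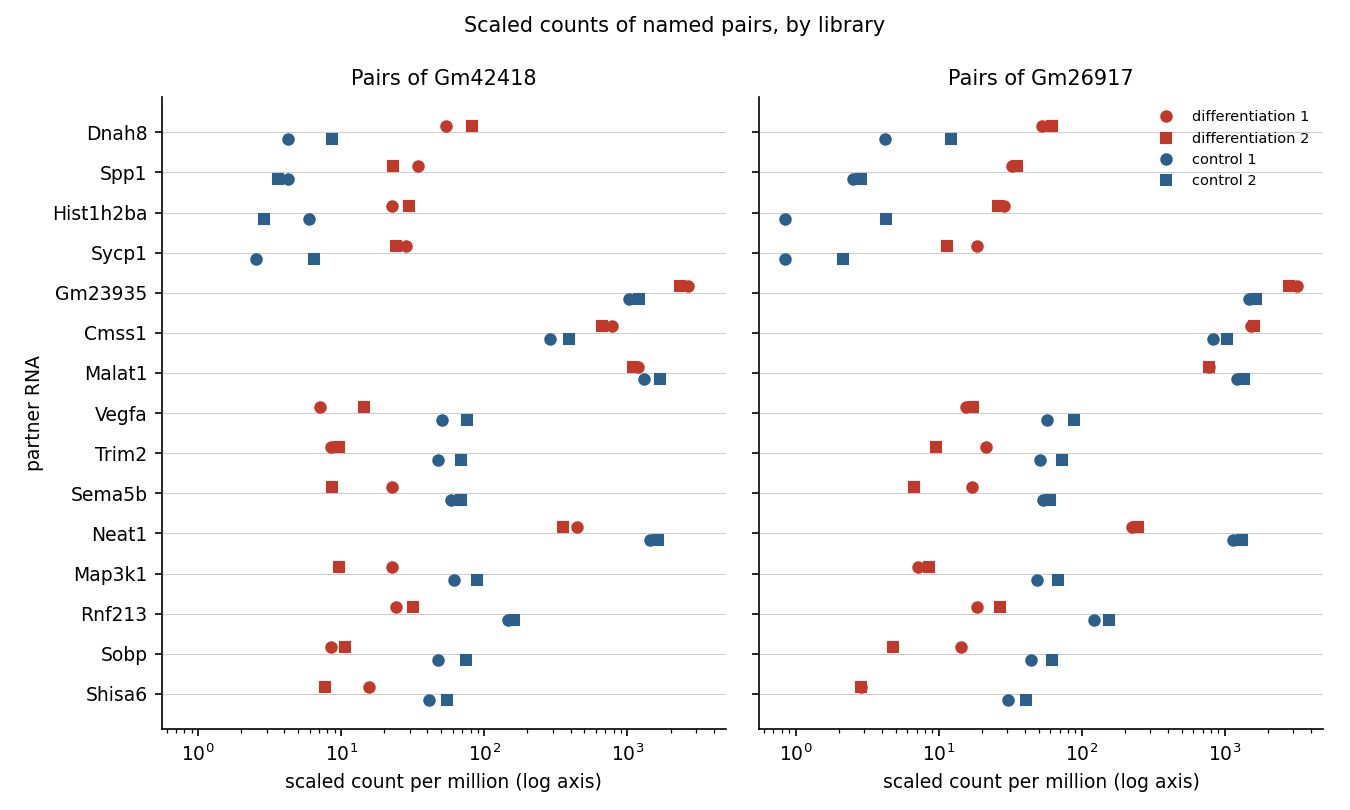
Scaled CPM of 15 partners with Gm42418 (left) and Gm26917 (right) in each library on a log axis, with differentiation drawn above control in each row. Dnah8 is higher in differentiation and Neat1, Rnf213 and Sobp are lower; most pairs were picked as called with groups apart, so the separation follows from the choice.

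Calls among other abundant partners had log2 changes near 1 or below. Gm23935 had 2651 and 2327 CPM with Gm42418 in differentiation and 1027 and 1199 in controls (log2 change 1.16, SE 0.17, adjusted p = 6.00e-04). With Gm26917 it had 3212 and 2798 in differentiation and 1479 and 1648 in controls (log2 change 0.94, SE 0.16, adjusted p = 0.00227), and this call was lost without control 1 (0.111) or control 2 (0.0571). The 7SL RNAs Rn7s1 (log2 change 0.79, adjusted p = 0.0232) and Rn7s2 (0.64, adjusted p = 0.0442) rose with Gm42418, as did Rpph1, the RNA of RNase P (0.87, adjusted p = 0.0397), and Rnu3a (0.91, adjusted p = 0.0363). All 4 calls were lost without control 1 (adjusted p = 0.228, 0.347, 0.338 and 0.271) or control 2 (0.217, 0.343, 0.130 and 0.179), and all 4 were lost with factors from hub-free pairs (0.0555, 0.105, 0.0805 and 0.0713). Rmrp had a log2 change of 0.37 with Gm42418 (adjusted p = 0.245) and 0.10 with Gm26917 (adjusted p = 0.807), and Rn7sk 0.50 with Gm42418 (adjusted p = 0.123).

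U3 contacts of Gm26917 did not pass the test, with log2 changes of -0.16 for Rnu3a (adjusted p = 0.650), 0.15 for Rnu3b3 (0.663) and 0.10 for Rnu3b4 (0.805), and Tex14 had 0.10 (0.780). Under column totals the values of Rnu3b4 and Tex14 were -0.05 and -0.04. Of 15 tested RNAs of pre-ribosomal cleavage, 1 was lower with Gm26917, beside 2.4% lower over all 31688 pairs. This was Snord14c, an 18S processing RNA, at 98.1 and 114 CPM in differentiation and 192 and 222 in controls (log2 change -0.96, SE 0.24, adjusted p = 0.0262). Its host gene Hspa8 had -0.70 (adjusted p = 0.0491). Both calls were lost without control 2 (adjusted p = 0.277 and 0.467) or control 1 (0.0764 and 0.142). Cmss1, the counterpart of a yeast small ribosomal subunit factor, rose with Gm42418 (log2 change 1.09, SE 0.21, adjusted p = 0.00518, and 0.131 without control 1). With Gm26917 it rose by 0.75 (adjusted p = 0.0192), lost without control 1 (0.342) or control 2 (0.123). Cdk8, a kinase of the Mediator complex, had 0.95 with Gm42418 and 0.77 with Gm26917 (adjusted p = 0.00953 and 0.0257), and these calls were lost without control 1 (0.122 and 0.394) or control 2 (0.121 and 0.0829). Taco1 had a log2 change of 0.12 with Gm42418 (adjusted p = 0.788), and -0.02 under column totals.

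The lists of ribosomal protein, nucleolar factor and translation factor genes held no calls. With Gm42418 and with Gm26917, none of the 17 and 14 tested small-subunit protein genes passed, nor of the 28 and 28 large-subunit genes, the 26 and 27 polymerase I and nucleolar factor genes or the 40 and 35 translation factor genes, by edgeR's quasi-likelihood test or DESeq2. At an unadjusted p under 0.05 there were 2 and 1 small-subunit, 1 and 4 large-subunit, 2 and 2 nucleolar and 4 and 2 translation factor genes. Of the mitochondrially encoded RNAs, 0 of 11 and 0 of 10 passed by either tool, and 6 and 2 had an unadjusted p under 0.05, with median log2 changes of 0.90 and 0.47.

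Few hub pairs were called as changed beyond the rest of the partner's contacts. The test set the hub pair against the partner's contacts without either hub, including any pair of the partner with itself, in the same 4 libraries. It called 7 of 6640 partners for Gm42418 (0.105%), of which 1 was higher (0.0151%) and 6 lower (0.0904%). For Gm26917 it called 33 of 6095 (0.541%), of which 2 were higher (0.0328%) and 31 lower (0.509%). The median log2 difference over all partners tested was -0.15 for Gm42418 and -0.44 for Gm26917. The direction depended on the scaling: with TMM over the 8 columns, chosen after seeing the data, 4 were higher and 4 lower for Gm42418, and 7 were higher and 4 lower for Gm26917. Without a filter there were 0 higher and 3 lower for Gm42418 and 0 higher and 4 lower for Gm26917, and against between-RNA contacts alone 13 were lower for Gm26917. Of the 126 and 125 called hub pairs, 122 and 124 entered this test and 3 and 6 passed it. An unadjusted p under 0.05 was found for 481 and 727 partners. Sema5b, an axon guidance gene, was lower in the tests of both hubs. Of the Gm42418 pair and the contacts of Sema5b without either hub together, the pair held 6.06% and 2.58% in differentiation. In controls it held 27.4% and 25.3% (log2 difference -3.04, SE 0.45, adjusted p = 7.15e-07). The corresponding shares of the Gm26917 pair were 4.62% and 2.02% in differentiation and 25.9% and 23.1% in controls (log2 difference -3.29, SE 0.48, adjusted p = 2.78e-08). The contacts of Sema5b without either hub were 248 and 340 counts in differentiation and 183 and 280 in controls. Both of its hub pairs fell (log2 change -2.08, adjusted p = 0.00881, and -2.34, adjusted p = 0.00528). Gm23935 was the 1 partner higher with Gm42418 beyond its other contacts (log2 difference 0.71, adjusted p = 0.00352). The other partners lower with Gm42418 beyond their other contacts were Hnrnpm, a splicing factor gene (log2 difference -1.95), Gm10801 (-1.85), Capzb, an actin capping protein gene (-1.64), Shroom3, a regulator of cell shape (-1.36), and Gm10800 (-1.10). For Gm26917 the largest lower differences were those of Ccdc191 (-4.24), Gm12057 (-3.44) and Zfp943 (-3.05) beside Sema5b. The 2 higher calls were the Mir3535 locus under its names Mir3535 and Gm24148, with the same counts (2.68, adjusted p = 0.0424). The pairs of Ccdc191, Gm12057 and Zfp943 rest on 2, 3 and 5 counts in differentiation, against 23, 27 and 27 in controls. The Mir3535 pair had 27 and 30. None of these pairs was called by itself in edgeR's test (adjusted p = 0.0611, 0.0686, 0.155 and 0.697). Leaving out any 1 library gave 0 calls for Gm42418 and at most 1 for Gm26917, and DESeq2 gave 1 lower call for each hub.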

How the data were processed

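The authors deposited a table of whole-number counts of chimeric reads per pair of RNAs in 4 libraries, not normalized. Per the submitters' processing notes, the tool STAR and the build GRCm38 are named, with no version and no statement of what each was used for. How chimeric reads were called, deduplicated or assigned among overlapping genes is not given in the sources used here. Every listed pair has at least 1 count in each library, so totals are those of shared pairs and not sequencing depth.

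Partners were classed with a RefSeq gene table (GRCm38.p6): 8835 of 9525 matched by symbol, 370 by synonym and 320 not at all. Pairs of all RNAs were fitted together with edgeR's quasi-likelihood test (TMM scaling, filterByExpr with minimum count 5 and minimum total 10, two-sided, Benjamini-Hochberg adjusted p under 0.05 over 31688 pairs), and the pairs of the hubs were read from that fit. CPM of pairs are on edgeR's effective library sizes. The same fit was run on the summed contacts of each RNA. The split between hubs, and a hub pair against the partner's other contacts, were fitted on 8 columns with the library as a block. Further terms were the hub or kind of contact and its interaction with differentiation. Other contacts were all counts of the partner without either hub, including any pair with itself. Alternatives were other scalings, filters, DESeq2, between-RNA pairs, identical pairs, a replicate block and leaving out each library. Leaving out 1 library leaves its group with a single one, assumed to vary like the other group. R, edgeR and DESeq2 versions were 4.3.3, 4.0.16 and 1.42.0. The fits of pairs and of the split were tested on simulated data. At a log2 change of 1 they called 10 of 100 pairs and 10 of 100 splits. At a change of 2 they called 64 and 60 of 100. Recovery at low counts was not measured separately and may be lower, for pairs and for splits.

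The members and gene lists were chosen with earlier results of these data known. Per hub, the pairs to name were the 6 largest partners, the 8 largest rises and falls past the threshold (groups apart, at least 10 counts in the lower group), up to 3 called members of each list, the 4 largest each way in the other 2 tests, and the 5 most uneven splits each way, of which some are left out or not reported here. Cmss1, Cdk8 and Hspa8, Spp1 with Gm26917, and Trim2 and Vegfa with Gm26917 in the plot, were chosen after their values were seen.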

Additional observations from a re-analysis of the deposited data

How the results depend on the processing

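The median pair had 31 counts with Gm42418 and 30 with Gm26917 over the 4 libraries; the part of depth in the differences below was not tested. Of 60 pairs examined singly that were past the threshold, 25 stayed past it without each library in turn, and over all alternatives the single pairs kept direction and side of the threshold in 882 cases, became weaker in 116 and stronger in 10. The cause was not tested. Higher and lower counts of Gm42418 pairs were 98 and 53 with scaling from hub pairs, 44 and 103 with column totals, 76 and 99 with the default filter and 32 and 49 with DESeq2, and without 1 library they ran from 22 to 88 and from 20 to 120. Those of Gm26917 were 31 and 89 with hub pairs, 12 and 167 with column totals, 20 and 165 with the default filter, 14 and 69 with between-RNA pairs alone and 11 and 67 with DESeq2, and without 1 library 6 to 36 and 31 to 142. With the replicate number as a block the counts were 108 and 95 for Gm42418 and 36 and 170 for Gm26917. The labels do not say whether same-numbered libraries were paired. Their deviations had a correlation of 0.02 over all pairs and -0.01 over hub pairs. With few counts in most pairs, these values cannot decide the question.

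The contact total of Gm26917 lost its call with RLE scaling (log2 change -0.47), column totals (-0.34), scaling without hub pairs (-0.32), scaling from hub pairs (-0.083), no filter (-0.53) and between-RNA pairs (-0.33), and ranged from -0.59 to -0.39 without 1 library. That of Gm42418 was 0.16 with scaling from hub pairs. The split test gave 0 calls with DESeq2 and 0 to 3 without 1 library. In the test against other contacts, Gm42418 had 0 higher and 3 lower without a filter, 0 and 1 with DESeq2, 4 higher with TMM over all 8 columns (chosen after seeing the data), and 0 either way without any 1 library. Gm26917 had 0 and 4 without a filter, 0 and 1 with DESeq2, 7 and 4 with TMM over all 8 columns, 1 higher with 1 of each set of identical pairs and 13 lower against between-RNA contacts alone, and without 1 library 0 higher and 0 to 1 lower. With a summed count of at least 20, the long noncoding share of Gm26917 differed by -1.31 percentage points and the shared partners were 80.1% and 89.8%.

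Signs turned for pairs near 0. Taco1 with Gm42418 had -0.023 with column totals, and -0.038 to 0.30 without 1 library. With Gm26917, Tex14 had -0.041 with column totals, -0.0031 with scaling without hub pairs and -0.0036 to 0.20 without 1 library. Rnu3b4 had -0.048, -0.011 and -0.0035 to 0.19 for the same, and Rmrp -0.045 and -0.0095 for the scalings.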
